A study of Mus musculus with 6 samples.

Results

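Cell cycle and DNA replication genes were examined in RNA from the atria of old mice. The set holds 36 genes, chosen by name, out of 54838 genes counted. Of these 36, 35 had counts and 34 passed the low-count filter and were tested, among 14708 genes tested in all. They were divided by role into 8 genes that license replication origins, 4 genes of the replication fork and of nucleotide supply, 6 genes of the G1 phase and of entry into S phase, and 18 genes of S, G2 and M phase, called mitotic below.

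The study compared old mice that lack the kinase PKC-epsilon, the product of Prkce, with old wild-type (WT) mice, 3 mice in each group with 1 library per mouse. Mice whose genotype field says knockout (KO) are given as the line JAX stock #004189, and those whose field says WT as C57BL/6J. All mice were old, at an average age of 20.9 ± 0.43 months (kind of error not stated), and both sexes were used. Whole atria were lysed, so a library holds the RNA of muscle, connective tissue, vessels and blood cells, and fewer cells of a type cannot be told apart from less RNA per cell.

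The labels give conflicting genotypes for 4 of the 6 libraries. Libraries are named here by the genotype in their library name and the replicate number in their title, as WT 1 to WT 3 and KO 1 to KO 3. The genotype field says WT for WT 1, KO 2 and KO 3, and KO for KO 1, WT 2 and WT 3. Both groupings were tested. Prkce was high in WT 1, WT 3 and KO 3 (36.2, 30.2 and 28.6 CPM, counts scaled to library size) and low in WT 2, KO 1 and KO 2 (11.7, 9.20 and 5.15 CPM). It therefore went against the label of 2 libraries in either grouping, WT 2 and KO 3 by library name and KO 2 and WT 3 by genotype field, and each comparison is also given without those 2. The library names form 2 series, an Old series (WT 1 and KO 1, named Old) and a numbered series (the remaining 4). Total counts ran from 11574206 to 24138824, with the lowest in WT 2 and KO 2. The summed level of 7 cardiomyocyte markers, Nppa and Myl7 among them, was 45792 to 54971 CPM, and all 7 were detected in each library.

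Before a cell can copy its DNA, the origin recognition complex, Cdc6 and Cdt1 load the ring-shaped MCM helicase, made of the proteins Mcm2 to Mcm7, onto replication origins, a step called licensing. D-type cyclins, and then cyclin E with Cdk2, drive the cell from G1 into S phase, and cyclin A and cyclin B with Cdk1 carry it through G2 into mitosis. Adult cardiomyocytes rarely divide, and most dividing cells of the adult heart are not muscle cells.

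Mitotic genes were the lowest of the roles. Per kilobase of exon free of other genes, which is the scale used here to compare genes with each other, the highest members were Ccnd2 at 23.9 CPM per kb and Pcna at 15.7 CPM per kb. Licensing members lay between 0.402 and 4.02 CPM per kb with a median of 3.39. Mitotic members lay between 0.156 and 1.7 CPM per kb with a median of 0.601. The mitotic members had 1 to 176 counts per library, so that counting error alone gives a coefficient of variation of 8.17% to 27.6% for the single members. The observed coefficient of variation over the 6 libraries was larger, at 21.0% to 61.9%. In 32 of the 35 members with counts, the spread between libraries exceeded counting error (chi-square over 6 libraries above its 95% limit), and the exceptions were Cdc6, Mcm5 and Bub1. The share of all tested genes above that limit was not computed, so the excess is not shown to be particular to these members. Without molecular identifiers, the intervals given below describe counting error alone.

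**Figure D1:**
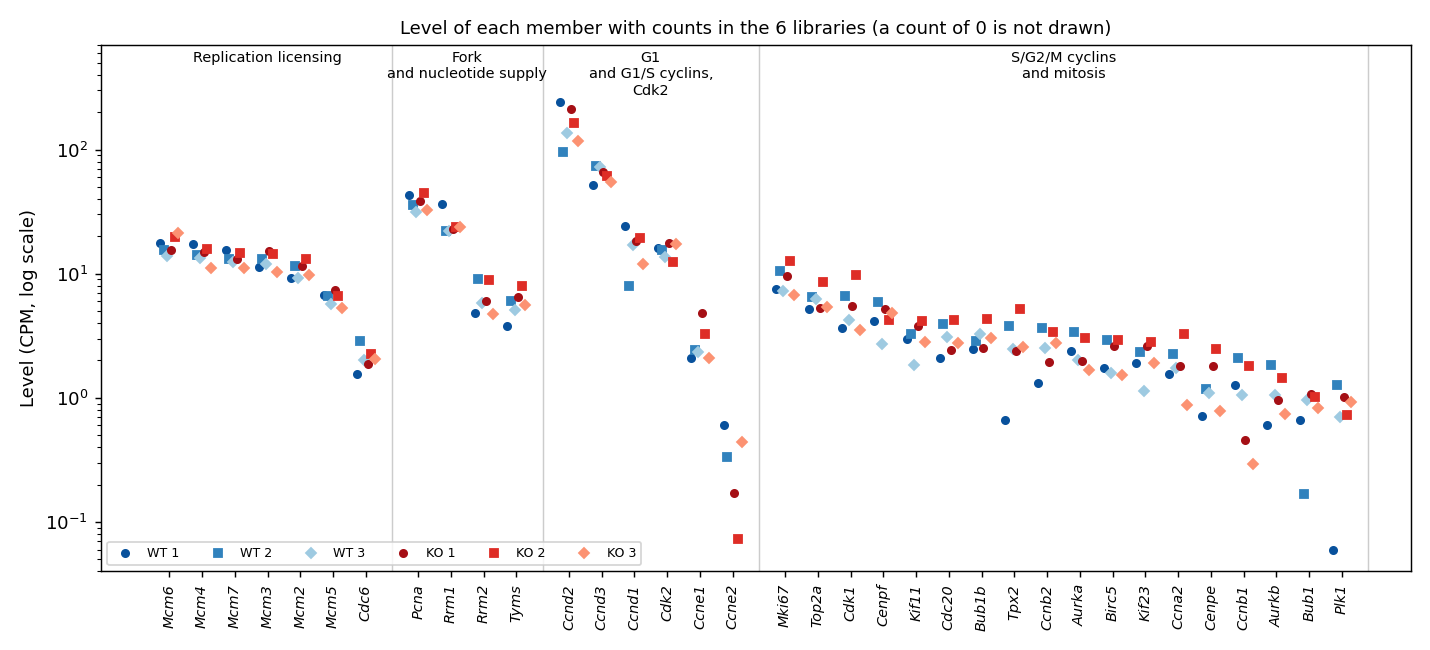
Level of each member with counts (vertical axis, CPM, log scale) in the 6 libraries (points), grouped by role and ordered by mean level. Licensing members form a narrow band in each gene, whereas WT 2 and KO 2 are at or near the top in most mitotic members.

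Among the licensing genes, the MCM helicase subunits had mean levels of 1.55 to 4.02 CPM per kb. Mcm6 was at 17.8, 15.4 and 13.9 CPM in WT 1, WT 2 and WT 3 and at 15.6, 19.7 and 21.3 CPM in KO 1, KO 2 and KO 3. KO 3 was highest, with a 95% Poisson interval of 19.3 to 23.4 CPM, and the groups by library name overlapped. Mcm4 was at 17.2, 14.1 and 13.3 CPM in the libraries WT 1 to WT 3 and at 15, 16.0 and 11.1 CPM in KO 1 to KO 3, so its highest and lowest libraries were WT 1 and KO 3. Mcm7 was at 15.5, 13.1 and 12.5 CPM in WT 1 to WT 3 and at 13.2, 14.6 and 11.2 CPM in KO 1 to KO 3. Both Mcm4 and Mcm7 thus had KO 3, the highest library of Mcm6, as their lowest. The means over all libraries were 12.7 CPM for Mcm3, 10.8 CPM for Mcm2, 6.40 CPM for Mcm5 and 2.1 CPM for the helicase loader Cdc6. The highest library was 1.38 to 1.84 times the lowest across the 7 licensing members with counts. Cdt1, the other loader, had 0 counts in all libraries. Its gene body is wholly covered by another annotated gene, Gm20388, on the same strand (0% free), so no level is given for Cdt1, and the part of the overlap in its 0 counts was not tested.

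The fork and nucleotide genes divided into members with different highest libraries. Pcna, the sliding clamp of DNA polymerases that also acts in DNA repair, was at 43.1, 35.9 and 31.2 CPM in WT 1 to WT 3 and at 38.3, 44.9 and 32.8 CPM in KO 1 to KO 3. Rrm1, the large subunit of ribonucleotide reductase, was at 36.6 CPM (95% Poisson interval 33.7 to 39.6) in WT 1. Its level was 22.0 to 23.9 CPM in the other 5 libraries, so 1 library alone stood apart. Rrm2, the small subunit that is made mainly in S phase, did not share that pattern. It was at 4.8, 9.0 and 5.83 CPM in WT 1 to WT 3 and at 6.02, 8.92 and 4.70 CPM in KO 1 to KO 3, highest in WT 2 and KO 2. Tyms, which makes thymidylate for DNA, was at 3.78, 6.06 and 5.08 CPM in WT 1 to WT 3 and at 6.47, 7.90 and 5.58 CPM in KO 1 to KO 3, lowest in WT 1. The subunits of 1 enzyme therefore parted, with Rrm1 highest and Rrm2 near its lowest in WT 1.

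The D-type cyclins, which activate Cdk4 and Cdk6, were the most abundant cyclins. Ccnd2 was at 241, 96.1 and 137 CPM in WT 1 to WT 3 and at 212, 163 and 116 CPM in KO 1 to KO 3. The 2 libraries of the Old series were the highest, and their 95% Poisson intervals (233 to 248 and 205 to 219 CPM) did not touch those of the other 4. Ccnd1 was at 24.1, 7.91 and 17.1 CPM in WT 1 to WT 3 and at 18.2, 19.5 and 11.9 CPM in KO 1 to KO 3. WT 2, among the highest libraries for mitotic genes, was the lowest for both Ccnd1 and Ccnd2. Ccnd3 ran the other way, at 51.4, 74.1 and 72.2 CPM in WT 1 to WT 3 and at 65.7, 60.8 and 55.2 CPM in KO 1 to KO 3, with WT 2 highest and WT 1 lowest. Genes on the opposite strand overlap Ccnd1 (LTO1) and Ccnd2 (Gm43126 and 9330179D12Rik), leaving 82.3% and 85.9% of their bodies free, and without strand the reads of the overlaps cannot be told apart.

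The later G1 genes were lower. Ccne1, cyclin E1, was at 2.1, 2.44 and 2.32 CPM in WT 1 to WT 3 and at 4.83, 3.26 and 2.1 CPM in KO 1 to KO 3. Only KO 1 (85 counts, 95% Poisson interval 3.86 to 5.97 CPM) had an interval clear of the WT libraries. Cdk2, the partner of cyclin E and cyclin A, was at 12.3 to 17.7 CPM. Ccne2, cyclin E2, had 0 to 10 counts per library and was not tested, and Ints8 on the opposite strand leaves 58.1% of its body free. Its 0 counts in WT 3 allow a level of up to 0.132 CPM (3 counts).

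Because 2 libraries of the Old series were highest in Ccnd2, the series were compared after these values had been seen, with the group by library name in the model. Ccnd2 averaged 226 CPM over the 2 Old libraries and 128 ± 28 CPM (SD, n = 4) in the numbered series. The log2 difference was 0.83 (SE 0.19), and edgeR's quasi-likelihood test gave an adjusted p of 0.335. It did not pass the test, nor did Ccnd1 at 0.59 (SE 0.32, adjusted p = 0.522). Between the series, 0 of 14708 genes passed (0%) and 0 members did. The share of all tested genes at an unadjusted p under 0.05 was 11.2%, and 3 of 34 members were among them. Beside Ccnd2 these were the mitotic members Tpx2 (-1.30, SE 0.49) and Ccnb2 (-0.92, SE 0.39), both lower in the Old series.

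Mitotic members moved together among the libraries. Mki67, the proliferation marker Ki-67 of chromosome surfaces, was at 7.56, 10.4 and 7.19 CPM in WT 1 to WT 3 and at 9.65, 12.8 and 6.75 CPM in KO 1 to KO 3. Cdk1, the kinase of mitotic entry, was at 3.66, 6.65 and 4.25 CPM in WT 1 to WT 3 and at 5.45, 9.72 and 3.52 CPM in KO 1 to KO 3. Both genes had KO 2 highest and WT 2 second, and KO 3 lowest. Top2a, which untangles DNA before chromosomes separate, was at 5.22, 6.48 and 6.22 CPM in WT 1 to WT 3 and at 5.28, 8.63 and 5.38 CPM in KO 1 to KO 3. Its order was the same at the top, but the 95% Poisson interval of WT 2 (5.11 to 8.10 CPM) covered the values of all libraries except KO 2.

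The highest library was KO 2 in 10 and WT 2 in 7 of the 18 mitotic members. These include the cyclins Ccna2, Ccnb1 and Ccnb2, the kinases Aurka, Aurkb and Plk1, the motors Kif11 and Kif23, the kinetochore proteins Cenpe and Cenpf, the anaphase activator Cdc20, the checkpoint kinase Bub1b, the spindle factor Tpx2 and Birc5, the survivin subunit of the Aurora B complex. The exception was Bub1, a checkpoint kinase with 2 to 22 counts, whose lowest library was WT 2. Thus 94.4% of mitotic members were highest in WT 2 or KO 2, against 35.9% of all tested genes and 38.3% of the 4970 tested genes in the same range of mean level. KO 2 lay above the member's own mean in 17 of 18 mitotic members, WT 2 in 15, and WT 1 in 2. Of the 7 licensing members, KO 2 lay above the mean in 7, and WT 2 and WT 1 in 4 each, and the shares of all tested genes were 48.8% in KO 2, 51.8% in WT 2 and 51.0% in WT 1. High levels in KO 2 were thus seen in both classes. WT 1 was the lowest library in 8 mitotic members, including Tpx2 at 0.660 CPM (11 counts) against 2.39 to 5.15 CPM elsewhere, and Plk1 with 1 count.

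**Figure D2:**
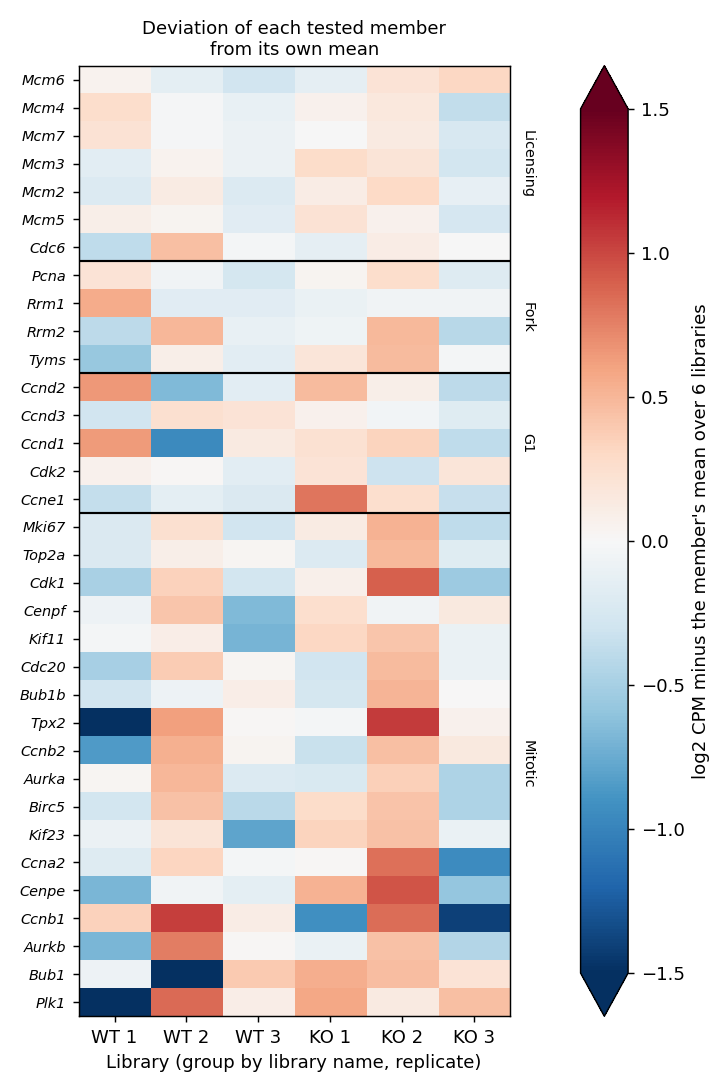
Log2 CPM of each tested member minus its own mean over the 6 libraries (colour), by library (columns) and member (rows, grouped by role). The mitotic rows are mostly above their mean in WT 2 and KO 2 and mostly below it in WT 1. The licensing rows are above their mean in KO 2 in 7 of 7 members and in WT 2 and WT 1 in 4 of 7 each.

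Summed over the 18 mitotic members, the level was 41.0, 64.5 and 44.9 CPM in WT 1 to WT 3 and 53.0, 76.1 and 44.0 CPM in KO 1 to KO 3. Summed over the licensing members, it was 79.4, 76.8 and 68.5 CPM in WT 1 to WT 3 and 79.8, 86.8 and 71.1 CPM in KO 1 to KO 3. Both sums had KO 2 highest, but the mitotic sum varied far more. As a share of the reads of both classes, mitotic reads were 34.1% in WT 1 (95% exact binomial interval 32.0% to 36.2%). The share was 45.6% in WT 2 (43.2% to 48.0%) and 46.7% in KO 2 (44.6% to 48.8%). It was 39.6% in WT 3, 39.9% in KO 1 and 38.2% in KO 3, and the intervals of these 3 ran from 36.3% to 41.9%. WT 2 and KO 2 were above, and WT 1 below, all other libraries by more than counting error. WT 2 and KO 2 have opposite genotypes in either grouping and share the replicate number 2. Both also had low Prkce (11.7 and 5.15 CPM). With KO 1, the remaining library of low Prkce, their mitotic sums were 53.0 to 76.1 CPM. The libraries of high Prkce (WT 1, WT 3 and KO 3) were at 41.0 to 44.9 CPM, without overlap. The licensing sums of the same libraries overlapped, at 76.8 to 86.8 against 68.5 to 79.4 CPM. This split was made after the values had been seen, and the part of Prkce level was not tested. The share of all tested genes without overlap in this split was not computed.

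**Figure D3:**
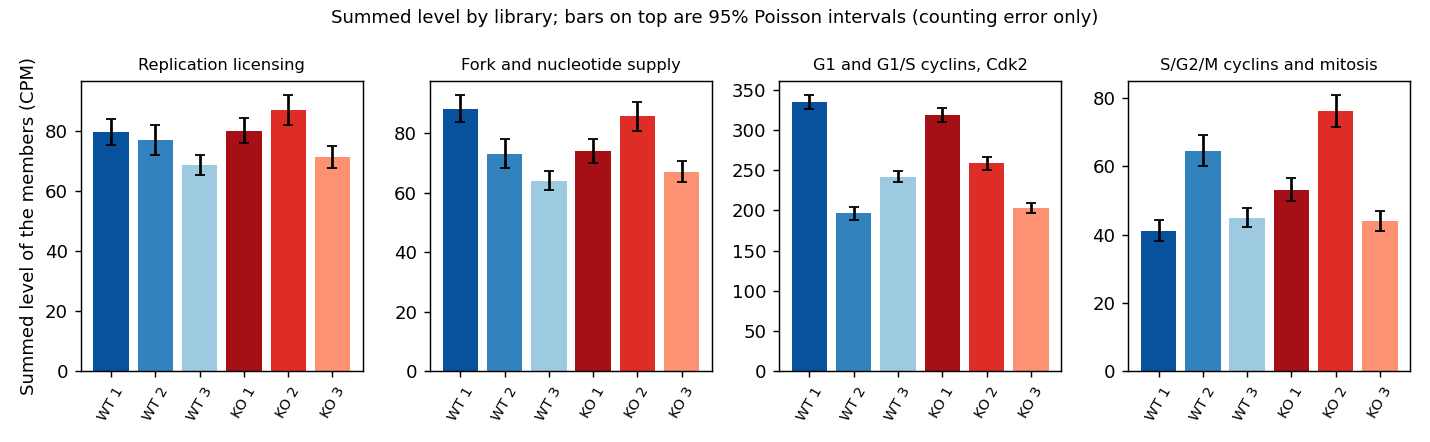
Summed level of the members of each role (vertical axis, CPM, from 0) in each library (bars), with 95% Poisson intervals. The licensing sum stays between 68.5 and 86.8 CPM, the mitotic sum runs from 41.0 to 76.1 CPM, and the G1 sum, mostly Ccnd2, is highest in WT 1 and KO 1.

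**Figure D4:**
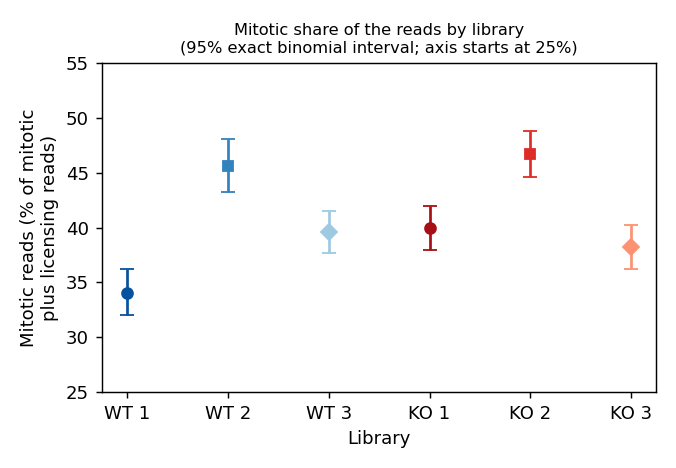
Mitotic reads as a percentage of mitotic plus licensing reads in each library, with 95% exact binomial intervals on an axis that starts at 25%. WT 2 and KO 2 stand above the rest and WT 1 below.

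Some marker lists of other cell types moved with the mitotic members. The 4 smooth muscle markers (Myh11, Acta2, Tagln and Cnn1) summed to 337 CPM in WT 2 and 350 CPM in KO 2, against 133 to 220 CPM in the other 4 libraries, with WT 1 lowest. The 5 white adipocyte markers summed to 49.3 and 57.4 CPM in WT 2 and KO 2, against 10.5 to 35.7 CPM. Within these lists Cnn1 was highest in KO 1, at 16.2 CPM. Lep was at 0.421 CPM in WT 2 against 1.91 CPM in KO 3, and Retn at 2.97 CPM in KO 2 against 4.31 CPM in KO 3. The other markers of both lists were highest in WT 2 and KO 2. The 7 B cell markers, of which Ms4a1 was at 0 in all libraries, were at 191 CPM in KO 2 but at 89.2 CPM in WT 2, within the 76.2 to 120 CPM of the rest. The 6 T cell markers summed to 12.9 to 17.4 CPM and the 6 macrophage markers to 354 to 549 CPM, highest in WT 2. The 4 germinal centre B cell markers summed to 20.2 CPM in WT 2 and 19.2 CPM in KO 2, against 11.6 to 16.8 CPM. Of the 6 erythroid precursor markers 5 were in the table, and they summed to 45.2, 58.1 and 63.5 CPM in WT 1 to WT 3 and to 97.7, 104 and 68.6 CPM in KO 1 to KO 3. The 5 endothelial markers summed to 944 to 1154 CPM, highest in KO 2. Of the 5 thymocyte markers, which summed to 0.0842 to 1.57 CPM, Rag1, Rag2 and Ptcra had 0 counts in all libraries, Dntt was counted in WT 1 alone, and Cd8b1, also a marker of mature T cells, had 1 to 32 counts. The 7 granulocyte precursor markers summed to 0.435 to 1.35 CPM, with Elane and Ctsg at 0 in all libraries and Prtn3 and Camp at 1 to 11 counts each. The 6 fibroblast markers summed to 1481 to 1958 CPM, highest in KO 2, with Tcf21 at 0 in all libraries. The 5 Schwann cell markers summed to 43.6 to 63.3 CPM, highest in WT 2. The 5 epicardial and mesothelial markers summed to 131 to 210 CPM, highest in WT 3. WT 2 and KO 2 also had the lowest total counts, 11574206 and 14015308. The part of these marker levels and of depth in the mitotic levels was not tested.

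The promoters of the 2 classes differ in sequence as well, and stretches are shown for members whose motifs lie before the start site. In quiescent cells the DREAM complex is known to hold cell cycle genes silent, binding early genes through E2F sites and late genes through the cell cycle homology region (CHR), with CCAAT boxes bound by NF-Y nearby. RefSeq windows of 300 bases (GRCm38.p6, 250 before to 50 after the start) were found for 29 of the 36 members. They were searched on both strands for the CHR, spelled TTTGAA, for the box spelled CCAAT, and for 2 forms of the E2F site. The first form is GCGGGAA, and the other, TTTGGCG, was added after the Mcm6 window had been seen and may overlap the first. Stretches before the start are given 5′ to 3′ with matches on either strand in capitals, so that a motif may appear as its reverse complement.
Cdk1 (chr10:69352913-69353012, minus strand): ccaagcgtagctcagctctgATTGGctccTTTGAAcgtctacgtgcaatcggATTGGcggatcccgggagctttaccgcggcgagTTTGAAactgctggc
Cdc20 (chr4:118437344-118437413, minus strand): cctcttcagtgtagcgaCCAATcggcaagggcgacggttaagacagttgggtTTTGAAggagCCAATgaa
Top2a (chr11:99024190-99024299, minus strand): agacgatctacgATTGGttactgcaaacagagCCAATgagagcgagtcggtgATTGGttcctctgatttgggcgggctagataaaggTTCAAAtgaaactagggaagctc
Kif11 (chr19:37376322-37376381, plus strand): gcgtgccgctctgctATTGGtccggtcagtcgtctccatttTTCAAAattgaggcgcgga
Cdc6 (chr11:98908001-98908050, plus strand): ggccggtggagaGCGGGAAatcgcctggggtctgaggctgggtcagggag
Mcm5 (chr8:75109349-75109508, plus strand): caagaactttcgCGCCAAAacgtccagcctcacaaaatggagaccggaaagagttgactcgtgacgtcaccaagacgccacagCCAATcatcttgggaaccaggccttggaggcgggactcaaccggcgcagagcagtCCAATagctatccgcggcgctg
Mcm6 (chr1:128359706-128359825, minus strand): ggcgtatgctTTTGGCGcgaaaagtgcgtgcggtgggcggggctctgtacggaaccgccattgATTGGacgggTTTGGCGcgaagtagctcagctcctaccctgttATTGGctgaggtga

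The stretches shown were picked for their motifs and are examples. The 4 mitotic promoters shown pair TTTGAA with CCAAT, and the 3 licensing promoters carry a form of the E2F site. In the stretches of Mcm5 and Mcm6 that form is TTTGGCG, and both also hold CCAAT. Of the 15 mitotic members with a window, 11 held TTTGAA, and each of these 11 also held CCAAT, a pair found in 7.0% of the 32851 windows of all genes. The 7 licensing members with a window are not the 7 tested ones, as they include Cdt1, which had 0 counts, and leave out Mcm4. Of these 7, 1 held TTTGAA (Mcm2). The first E2F form was found for 4 of the 7 licensing members and 0 of 15 mitotic members, against 4.6% of all windows. With the form chosen after the Mcm6 window had been seen, the count was 6 of 7, which includes Mcm6 itself and is no independent count, and 0 of 15, against 6.0% of all windows. CCAAT was held by 14 of 15 mitotic and 5 of 7 licensing members, against 37.4% of all windows, TTTGAA by 17.9% of all windows and TTTGGCG by 1.6%. These matches are descriptions of the letters, and binding was not measured.

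The wider lists of pathway genes were described in the same way. Of 50 further mitotic genes 45 were tested, and 35 of them (77.8%) were highest in WT 2 or KO 2. Their median deviation from the gene's own mean was 0.40 in WT 2 and 0.48 in KO 2 on the log2 scale, and -0.40 in WT 1. Of 40 further replication genes, 36 were tested, and 10 of them (27.8%) were highest in WT 2 or KO 2, against 35.9% of all tested genes. Their median deviations were 0.03, 0.03 and -0.17 in WT 1 to WT 3 and 0.01, 0.01 and 0.11 in KO 1 to KO 3. KO 3 lay above the gene's own mean in 29 of these 36 genes, but in 1 of the 7 licensing members, against 49.6% of all tested genes. Of 33 CDK inhibitors and genes of the RB and E2F network, 29 were tested, with median deviations of -0.07 to 0.08 over the 6 libraries.

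By library name, no member differed between KO and WT beyond the spread of the mice. Of the 34 tested members, 0 passed at an adjusted p of 0.05 by edgeR's quasi-likelihood test, and 0 had an unadjusted p under 0.05. The shares of all 14708 tested genes were 0% and 1.49% (0.639% higher and 0.85% lower in KO), and DESeq2 and limma-voom also called 0 members. The member with the smallest p was Tyms, at 6.65 ± 1.17 CPM (SD, n = 3) in KO and 4.97 ± 1.14 CPM in WT, a log2 fold change of 0.42 (SE 0.28). Next came Ccne1 at 0.57 (SE 0.37), Mcm6 at 0.26 (SE 0.19) and the kinetochore motor Cenpe at 0.74 (SE 0.51). Cenpe was at 0.720, 1.18 and 1.10 CPM in WT 1 to WT 3 and at 1.82, 2.47 and 0.783 CPM in KO 1 to KO 3, from 12 to 34 counts. Ccnb1, cyclin B1, had 21, 25 and 24 counts in WT 1 to WT 3 and 8, 25 and 6 counts in KO 1 to KO 3. It was at 1.26, 2.1 and 1.05 CPM against 0.454, 1.81 and 0.294 CPM, a log2 fold change of -0.81 (SE 0.66) with overlapping groups. All 34 members had an adjusted p of 0.99993.

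The groups of no member were free of overlap by library name, against 5.95% of all tested genes (3.33% with KO above and 2.62% with KO below). A log2 fold change above 0 was held by 4 of 7 licensing members (median 0.03), 3 of 4 fork members (0.04), 4 of 5 G1 members (0.05) and 15 of 18 mitotic members (0.19), against 45.5% of all tested genes (median -0.02). The summed mitotic level was 57.7 ± 16.5 CPM (SD, n = 3) in KO and 50.1 ± 12.6 CPM in WT. The summed licensing level was 79.3 ± 7.9 against 74.9 ± 5.7 CPM, and both differences were smaller than the SD within either group. Between libraries of the same number, the licensing sum was higher in KO in 3 of 3 pairs and the mitotic sum in 2 of 3. The licensing sums were 79.8, 86.8 and 71.1 CPM in KO 1 to KO 3 against 79.4, 76.8 and 68.5 CPM in WT 1 to WT 3. Their Poisson intervals overlapped in each pair, but barely for KO 2 (81.95 to 91.86 CPM) and WT 2 (71.93 to 81.99 CPM). Overlap of intervals does not decide whether counting error could give the difference of a pair. The Poisson intervals of the mitotic sums overlapped for KO 3 and WT 3 alone, the pair with KO lower. In the Old series the mitotic sum was 53.0 CPM in KO 1 and 41.0 CPM in WT 1. In the numbered series it was 76.1 and 44.0 CPM in KO 2 and KO 3 and 64.5 and 44.9 CPM in WT 2 and WT 3, so the groups overlapped there. Without KO 2, the mitotic median was -0.04 with 8 of 18 members higher. Without the 2 libraries at odds with Prkce, it was 0.56 with 17 of 18 higher, and 0 members passed. The median of all tested genes was -0.01 in that run, which sets WT 1 and WT 3 against KO 1 and KO 2. These are part of the split by Prkce level above, so the run is no separate support for that split. WT 1 and WT 2 alone lacked Y-linked expression (1.08 and 1.09 CPM summed, against 78.9 to 146 CPM), so sex is unbalanced by library name. With Y-linked expression as a covariate, the KO effect rests on WT 3 alone against KO 1 to KO 3. No KO library lacked that expression. In that fit 7 of 7 licensing members (median 0.17) and 30 of 34 members in all were higher in KO. The median of all tested genes there was 0.0058. WT 3 itself lay above the member's own mean in 0 of the 7 licensing members.

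By genotype field, 0 of 34 members passed, against 0.0136% of all tested genes (2 genes), and 2 members had an unadjusted p under 0.05, against 5.69% of all genes (4.34% higher and 1.35% lower). These were Ccnd3, at 70.7 ± 4.4 CPM (SD, n = 3) with the field KO and 55.8 ± 4.7 CPM with the field WT, and Mcm6, at 15 ± 0.91 against 19.6 ± 1.7 CPM. Ccnd3 had a log2 fold change of 0.34 (SE 0.13) and was higher in 3 of 3 libraries, and edgeR's quasi-likelihood test gave it an adjusted p of 0.864. The log2 fold change of Mcm6 was -0.39 (SE 0.16), lower in 3 of 3 libraries, and its adjusted p in edgeR was 0.868. Rrm1 was next at -0.33 (SE 0.19), at 22.4 ± 0.6 against 28.1 ± 7.3 CPM, where WT 1 alone lay far above the other 2 libraries with the field WT. Pcna followed at -0.20 (SE 0.16) and the mitotic kinase Plk1 at 0.76 (SE 0.71), with 15, 16 and 18 counts in WT 2, WT 3 and KO 1 and 1, 10 and 19 counts in WT 1, KO 2 and KO 3. Groups did not overlap for Ccnd3, Mcm6 and Rrm1, 3 of 34 members, against 12% of all tested genes (7.48% with KO above and 4.49% with KO below). With the replicate number as a block, 51 genes passed in place of 2, and still 0 members, the smallest adjusted p being 0.385.

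With this grouping the roles differed little. A log2 fold change above 0 was held by 4 of 7 licensing (median 0.0054), 2 of 4 fork (-0.08), 3 of 5 G1 (0.03) and 12 of 18 mitotic members (0.05), against 48.1% of all tested genes (median -0.01). With DESeq2's size factors 3 of 7 licensing and 11 of 18 mitotic members were higher. The summed mitotic level was 54.1 ± 9.8 CPM (SD, n = 3) with the field KO and 53.7 ± 19.4 CPM with the field WT. The summed licensing level was 75.1 ± 5.9 against 79.1 ± 7.8 CPM. The number of mitotic members higher with the field KO was 18 of 18 without KO 2 and 5 of 18 without WT 1 or without WT 2. It was 16 of 18 without the 2 libraries at odds with Prkce in this grouping, where the median of all tested genes was -0.01. That run sets KO 1 and WT 2 against WT 1 and KO 3, again part of the split by Prkce level.

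**Figure D5:**
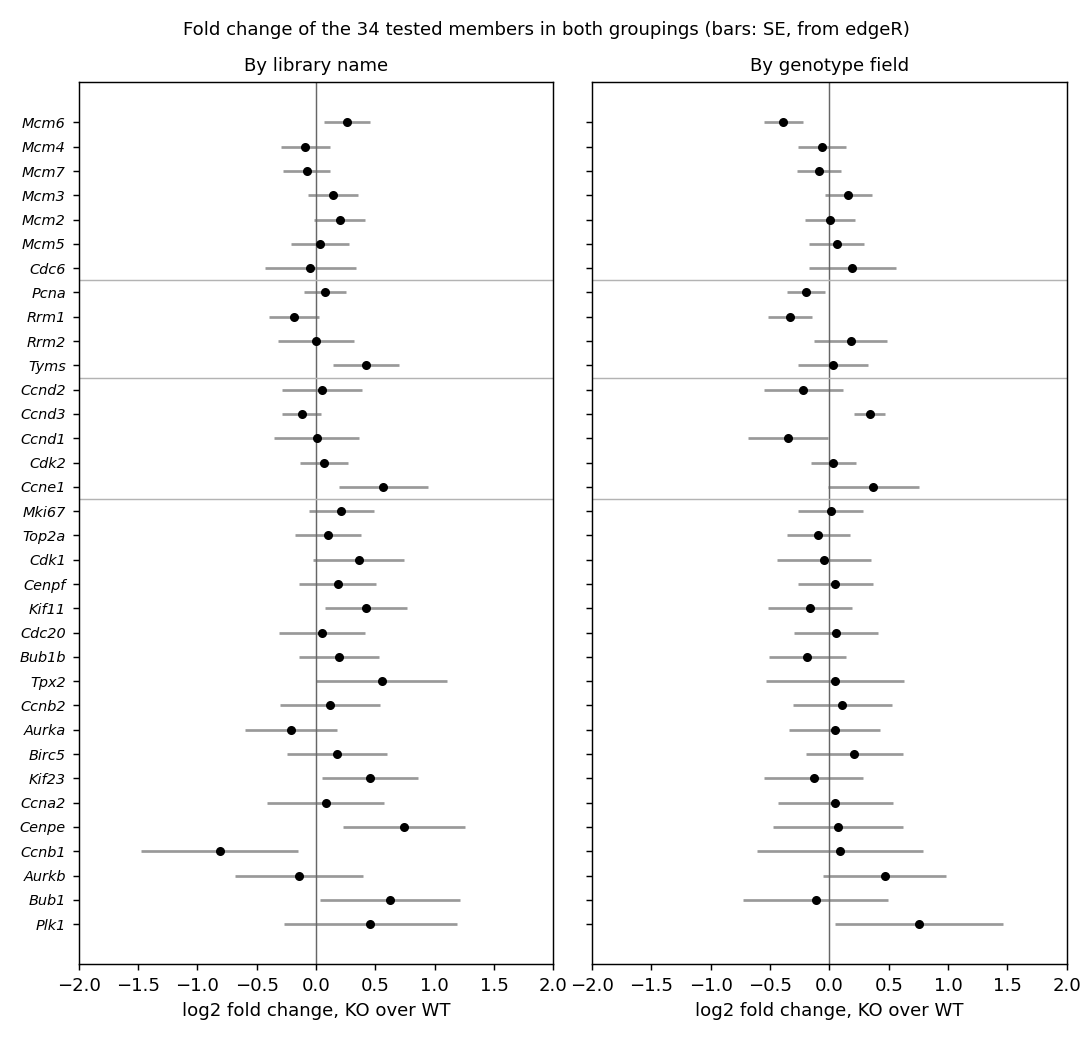
Log2 fold change of KO over WT for the 34 tested members (rows, grouped by role) by library name (left) and by genotype field (right), with standard errors as bars. No member passed the test in either panel, and the standard errors widen from the licensing to the mitotic members.

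Among the wider pathway lists, 0 genes passed in either grouping in edgeR, against 0% and 0.0136% of all tested genes. Of the further replication genes, 23 of 36 were higher by library name (median 0.11) and 11 of 36 by genotype field (median -0.11). The shares of all tested genes were 45.5% and 48.1%. In each grouping, 1 of the 36 genes had an unadjusted p under 0.05, against 1.49% of all tested genes by library name and 5.69% by genotype field. By library name that gene was Rfc4, a subunit of the clamp loader, at 8.77 ± 0.98 CPM (SD, n = 3) in KO and 6.06 ± 0.66 CPM in WT, followed by the subunit Rfc3 (8.39 ± 0.54 against 6.04 ± 0.83 CPM) and the polymerase Pole (log2 fold change 0.53, SE 0.35). By genotype field it was Dut, which clears dUTP, at 26.9 ± 3.7 against 34.2 ± 2.3 CPM. Next by genotype field were the polymerase subunit Pold1 (0.44, SE 0.20) and the origin-firing kinase Cdc7 (-0.70, SE 0.35).

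Of the further mitotic genes, 31 of 45 were higher by library name (median 0.16) and 25 of 45 by genotype field (median 0.09). The shares of all tested genes were 45.5% and 48.1%. The kinesin Kifc1 was at 1.6 ± 0.34 against 0.679 ± 0.323 CPM by library name, a log2 fold change of 1.19 (SE 0.49). It was the single gene of the 45 at an unadjusted p under 0.05, against 1.49% of all tested genes. The centromeric histone Cenpa (0.30, SE 0.15) and the cohesin acetyltransferase Esco2 (-1.10, SE 0.57) came next. By genotype field, 0 of these genes had an unadjusted p under 0.05, against 5.69% of all tested genes. The smallest p belonged to Cdca2 (0.94, SE 0.57), the motor Kif2c (-0.83, SE 0.51) and the spindle protein Tacc3 (0.40, SE 0.27).

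Of the CDK inhibitors and the RB and E2F network, 10 of 29 genes were higher by library name (median -0.07). By genotype field 13 of 29 were higher (median -0.06), and the shares of all tested genes were 45.5% and 48.1%. In either grouping 0 had an unadjusted p under 0.05, against 1.49% and 5.69% of all tested genes. The inhibitor p27, Cdkn1b, was at 29.6 ± 2.9 CPM (SD, n = 3) in KO and 36.5 ± 7.9 CPM in WT by library name. The stress-induced inhibitor p21, Cdkn1a, was at 33.8, 80.3 and 123 CPM in WT 1 to WT 3 and at 24.4, 53.7 and 55.3 CPM in KO 1 to KO 3. Its 2 lowest libraries were those of the Old series. Trp53, the tumour suppressor that induces p21, had a log2 fold change of 0.26 (SE 0.20) by library name. By genotype field the smallest p belonged to E2f8 (-1.11, SE 0.52), E2f4 (0.29, SE 0.14) and the inhibitor Cdkn2d (0.36, SE 0.20).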

How the data were processed

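RNA from 6 atrial samples had been made into TruSeq v2 libraries, which do not mark strand, per the labels' protocols. The deposited table holds raw counts per Ensembl gene. The authors used HISAT2 2.1.0 and featureCounts 1.5.0-p3 on GRCm38, per the submitters' processing notes. The annotation and the counting settings are not stated in these sources. Gene positions and overlaps came from GENCODE M21. Counts were tested with edgeR 4.0.16 in R 4.3.3 (TMM, filterByExpr, quasi-likelihood F test, two-sided, Benjamini-Hochberg over all genes). Each SE was derived as the size of the log2 fold change divided by the root of its F statistic. CPM uses TMM-scaled library sizes. DESeq2 1.42.0 and limma 3.58.1 were alternatives. The fit was tested on simulated data. Same-numbered libraries deviated together (correlations across genes of 0.121 to 0.269 in the 3 pairs of both groupings), so the replicate number was also fitted as a block. Values in all libraries are given for the 3 members of highest mean CPM per role (all 4 fork members) and the 5 smallest p per comparison, and the 3 smallest p per wider list are named. Other single values were chosen after they were seen. Members and lists were chosen with earlier results of these data known.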

Additional observations from a re-analysis of the deposited data

How the results depend on the processing

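No cell cycle member passed the test under any alternative run, in either grouping or between the library series, and the log2 fold changes named in the comparisons kept their direction. Among all 34 members, up to 10 changed sign by library name (without KO 2) and up to 13 by genotype field (without WT 2). The number of all genes past the test by library name, 0, was 1 without the low-count filter, 4 with Y-linked expression as a covariate, 6 without the 2 libraries at odds with Prkce and 0 to 4 leaving out 1 library. By genotype field, 2 in the main fit, it was 16 in DESeq2, 1 in limma-voom, 25 without the filter, 51 with the replicate block, 7 with the library series as a covariate and 0 to 2 leaving out 1 library. The replicate block changed no call of a member. Between the series, 0 genes became 8 with the genotype field in the model and 0 to 22 leaving out 1 library, where a lone library of the Old series is assumed to vary like the others. Without the 2 libraries at odds with Prkce, the medians of licensing and mitotic members were 0.18 and 0.56 by library name and 0.20 and 0.45 by genotype field. Both runs hold parts of the same split by Prkce level. Leaving out 1 library, the licensing median ran from -0.046 to 0.20 by library name and from -0.058 to 0.11 by genotype field, and the mitotic median from -0.04 to 0.43 and from -0.18 to 0.37. The causes were not tested. Mitotic members had 1 to 176 counts per library, and their median coefficient of variation was 32.1% observed against 15.6% from counting error.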
